A study of Mus musculus with 16 samples.

Results

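Metabotropic glutamate receptors are G protein-coupled receptors that tune synaptic transmission, in contrast to the AMPA, NMDA and kainate receptors, which are ion channels. Of the 18194 genes that had a probe set mapped to 1 gene symbol alone on the array, 6 were taken here as this family: Grm2, Grm3, Grm4, Grm5, Grm7 and Grm8. They had 9 probe sets, namely 1 each for Grm2, Grm3, Grm4 and Grm8, 2 for Grm5 and 3 for Grm7. A further probe set listed for Grm2 together with Gm28111 was not counted as a member. Members were chosen by their names and not by their signals, though earlier results of these data were known.

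The arrays measured RNA from the hippocampus of male mice aged 2 months, of the strain labelled C56/BL6, with 4 arrays for each of 4 genotypes. The N-dCKO mice carried APP-/- and APLP2-/- by their genotype label, and the series title describes them as a neuronal double conditional knockout. Which promoter drove the deletion, and in which cells, was not stated. The APPKO mice were APP-/-, the APLP2KO mice were APLP2-/-, and WT mice were wild type at both genes. APP, known for the amyloid peptide cut from it, and APLP2 belong to 1 family of membrane proteins. Since no label says whether the 4 samples of a group were different animals, part or all of the spread behind each p-value may be technical.

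Glutamate receptors of this family fall into 3 groups. Group I, here Grm5, couples through Gq to phospholipase C and calcium release and sits mainly at postsynaptic membranes around the synapse, and also on astrocytes. Group II, here Grm2 and Grm3, and group III, here Grm4, Grm7 and Grm8, couple through Gi and Go, which lower cyclic AMP. In the hippocampus many of the group II and III receptors sit on presynaptic terminals, where they reduce transmitter release, while Grm3 is also made by astrocytes.

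Signals are the authors' MAS5 intensity values on a linear scale, and signals of different probe sets cannot be set against each other. The arrays shared a trimmed mean of 500 (2% taken off each end), and their medians ranged from 79.7 to 102. App read 1959 to 2381 in N-dCKO and 2344 to 2724 in APPKO, against 17720 to 21080 in APLP2KO and 17310 to 19940 in WT. Aplp2 read 860.4 to 1132 in N-dCKO and 847.1 to 1501 in APLP2KO, against 5406 to 6026 in APPKO and 5725 to 6186 in WT, which is the pattern the genotype labels give. Of genes with a probe set, 10 of 10 neuronal markers, 9 of 10 markers of dentate granule neurons and 11 of 11 markers of CA pyramidal neurons had a signal above the filter on low values given below. The 10 choroid plexus markers averaged 5.56, 6.09 and 6.18 on the log2 scale on N-dCKO arrays 1, 2 and 4, against 8.71 on N-dCKO array 3 and 8.62 to 10.10 on the arrays of the other groups.

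None of the receptor probe sets differed between genotypes after adjustment over all probe sets. A mean log2 signal of 6.60, a signal of 88, was the filter on low values, and 7 of the 9 member probe sets passed it, covering all 6 genes. In N-dCKO against WT 0 of 7 were called by limma at an adjusted p below 0.05, with 0.667% of all 22503 tested probe sets called. The counts were also 0 of 7 in APPKO against WT, where 0.0133% of all were called, and in APLP2KO against WT, where 0.147% were. Against the single knockouts, N-dCKO had 0 of 7 called both beside APPKO (0.262% of all) and beside APLP2KO (0.0267% of all). The test for any difference among the 4 groups called 0 of 7, with 0.435% of all called. The interaction, which asks whether losing both genes differs from the sum of the single losses, called 0 of 7 and 0% of all probe sets. The series title describes the N-dCKO deletion as conditional. The interaction therefore cannot tell the joint loss apart from a difference in the kind of deletion.

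Unadjusted p-values below 0.05 were reached by 1 of 7 in N-dCKO, 2 of 7 in APPKO and 2 of 7 in APLP2KO, each against WT, by 1 of 7 in the interaction and by 0 of 7 in N-dCKO against either single knockout and in the test over 4 groups. Over all tested probe sets these shares were 11.2% in N-dCKO, 4.9% in APPKO and 7.1% in APLP2KO, each against WT, 4.14% in the interaction, 7.48% in N-dCKO against APPKO, 7.5% in N-dCKO against APLP2KO and 9.12% in the test over 4 groups. For 0 of 7 did all 4 arrays of a knockout group lie beyond all 4 WT arrays, which happened for 6.77% of all tested probe sets in N-dCKO, 2.59% in APPKO and 4.15% in APLP2KO.

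The differences of the 7 tested probe sets were also small in size. Their largest log2 fold change was 0.19 in N-dCKO, 0.23 in APPKO and 0.22 in APLP2KO, each against WT. The 95% intervals of the 7 reached at most from -0.43 to 0.52. Median log2 fold changes were 0.11, 0.11 and 0.04 in that order, beside 0.01, 0.00 and 0.00 for all tested probe sets. In each knockout group 6 of 7 values were positive, also after quantile normalization. With each array centred on its median 5 of 7 were positive in N-dCKO, 4 of 7 in APPKO and 2 of 7 in APLP2KO. That centring moved the median of all tested probe sets to -0.08 in N-dCKO, -0.09 in APPKO and -0.08 in APLP2KO. The 3 comparisons share the WT arrays. For the 2 Grm7 probe sets below the filter, the differences from WT in N-dCKO were larger, at 0.59 (1458861_at) and 0.41 (1459532_at) on the log2 scale. Arrays overlapped in both, with exact permutation p of 0.0571 and 0.571. The 0.41 includes WT array 4, which read 3.43, against 22.0 to 41.5 on the other WT arrays.

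**Figure D1:**
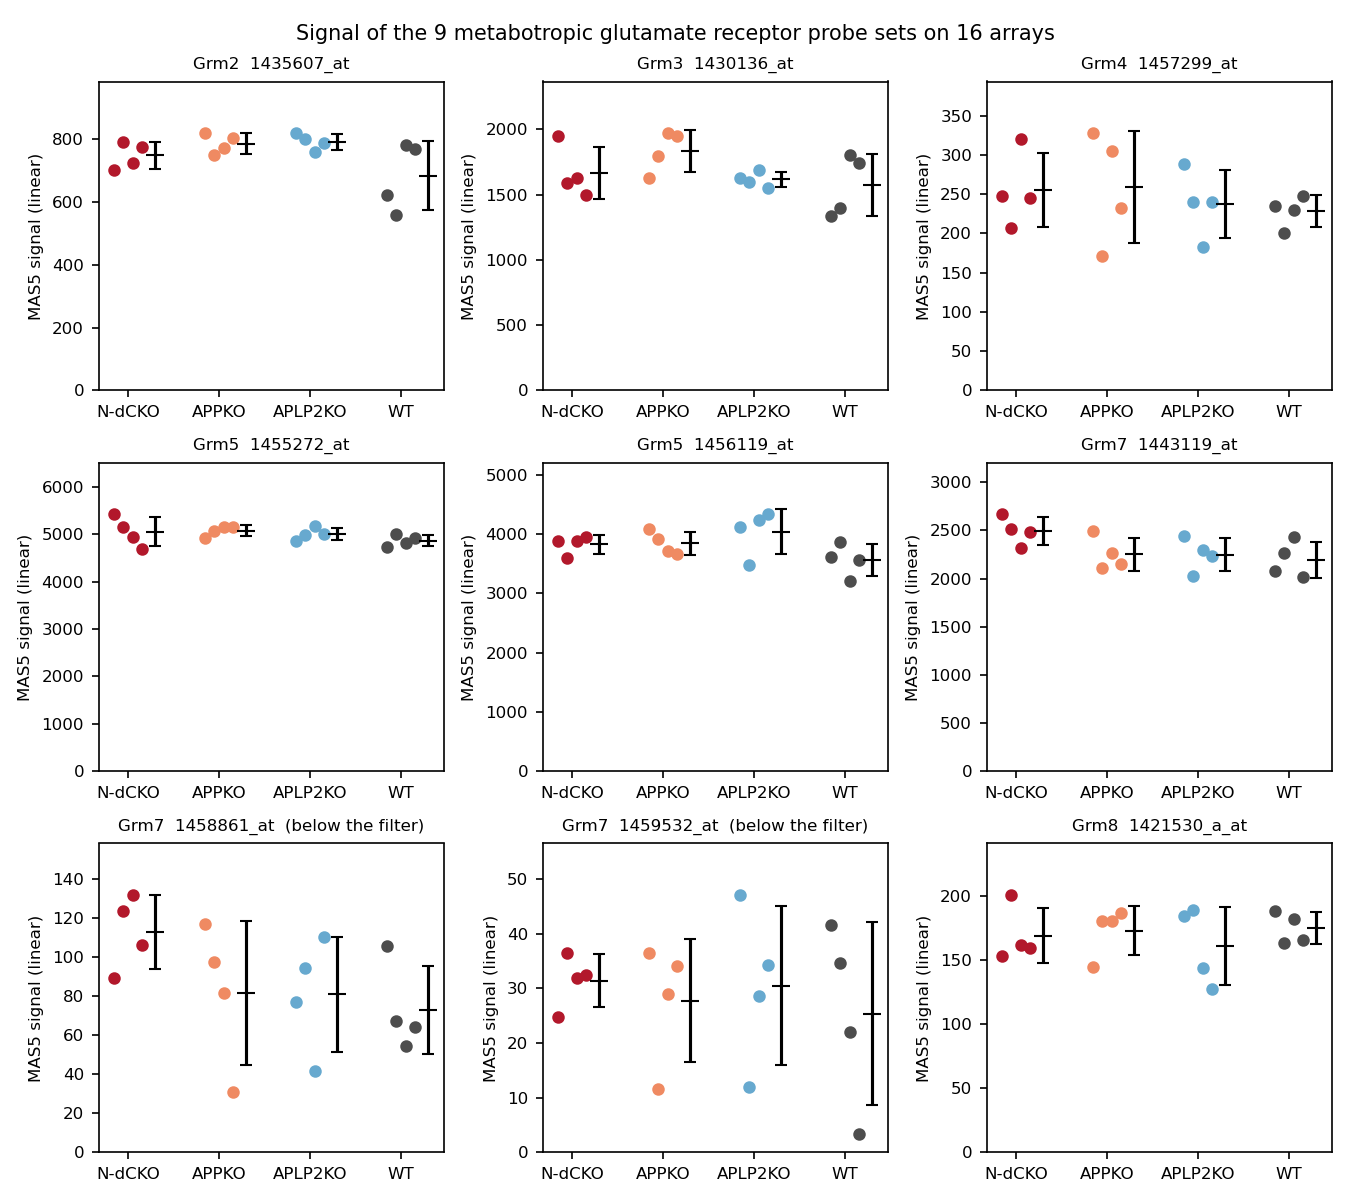
MAS5 signal (linear, y axis from 0) of each of the 9 receptor probe sets by genotype; each point is 1 array, in order of replicate number, and the bar is the mean with SD (n = 4). For all probe sets the arrays of the 4 genotypes overlap, and the spread is widest for the 2 dim Grm7 probe sets.

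Grm5, the group I receptor, held the tested probe set with the smallest spread, 1455272_at. This probe set read 5422, 5142, 4936 and 4695 in N-dCKO, 4910, 5064, 5152 and 5147 in APPKO, 4844, 4975, 5165 and 5005 in APLP2KO, and 4737, 4990, 4814 and 4911 in WT. N-dCKO held both the highest and the lowest of all 16 arrays, and the highest was 1.15 times the lowest. Log2 fold changes of this probe set against WT were 0.05 in N-dCKO (95% interval -0.05 to 0.15), 0.06 in APPKO (-0.04 to 0.16) and 0.04 in APLP2KO (-0.06 to 0.14), with limma adjusted p of 0.747, 1 and 0.912. With arrays centred on their medians the N-dCKO and APPKO values turned to -0.04 and -0.03.

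The other Grm5 probe set, 1456119_at, read 3887, 3593, 3884 and 3944 in N-dCKO, 4091, 3911, 3714 and 3661 in APPKO, 4111, 3486, 4237 and 4338 in APLP2KO, and 3618, 3868, 3205 and 3558 in WT. Of the APLP2KO arrays, 3 lay above every WT array, and array 2 lay among the WT values. The log2 fold change of APLP2KO against WT was 0.18 ± 0.07 (SE), with a limma adjusted p of 0.586 and an unadjusted p of 0.0177. In N-dCKO and in APPKO it was 0.11 ± 0.07 each. In APLP2KO the values of the Grm5 probe sets were thus 0.04 and 0.18, and neither passed.

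Grm2, a group II receptor found mainly on presynaptic terminals, read 703, 792, 724 and 773 in N-dCKO, 820, 749, 770 and 805 in APPKO, 818, 800, 759 and 788 in APLP2KO, and 622, 558, 780 and 770 in WT. WT arrays 1 and 2 were the lowest of all 16, and WT arrays 3 and 4 lay within the knockout range. The coefficient of variation was 16.1% in WT, against 5.54% in N-dCKO, 4.07% in APPKO and 3.16% in APLP2KO. Log2 fold changes against WT were 0.14 ± 0.09 in N-dCKO, 0.21 ± 0.09 in APPKO and 0.22 ± 0.09 in APLP2KO (SE), with limma adjusted p of 0.596, 0.973 and 0.612. Without WT array 2 the APPKO and APLP2KO values were 0.12 and 0.13. The interaction of both losses was -0.30 ± 0.13, with an unadjusted p of 0.0339 and a limma adjusted p of 0.999, and it was -0.20 without WT array 2. Grm2 lies on chromosome 9, which also carries Aplp2.

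Grm3, the other group II receptor, read 1948, 1590, 1624 and 1493 in N-dCKO, 1624, 1791, 1971 and 1947 in APPKO, 1627, 1598, 1690 and 1554 in APLP2KO, and 1337, 1395, 1804 and 1744 in WT. WT was divided here too, with arrays 1 and 2 the lowest of all 16 and arrays 3 and 4 above every APLP2KO array. APPKO had the highest mean, 1833 ± 161 (SD, n = 4), against 1570 ± 238 in WT, and the log2 fold change was 0.23 ± 0.10 (SE), with an unadjusted p of 0.0282 and a limma adjusted p of 0.973. Only 2 of 4 APPKO arrays lay above all WT arrays. N-dCKO (0.09 ± 0.10) and APLP2KO (0.05 ± 0.10) differed less from WT, with adjusted p of 0.795 and 0.941 by limma. The 12 genes of the astrocyte list averaged 11.88 to 11.94 on the log2 scale in N-dCKO arrays, 11.80 to 11.89 in APPKO and 11.81 to 11.92 in APLP2KO. All of these lay above the 11.74 to 11.79 of WT arrays on the deposited scale. Over the 16 arrays Grm3 had r = 0.18 and rho = 0.08 with that list (permutation p adjusted over 81 relations of 0.777 and 0.918). As deviations from the genotype means r was 0.19. The part of the astrocyte difference in the Grm3 values was not tested. In whole hippocampus, a change in the number of cells of a type and a change in RNA per cell cannot be told apart.

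Grm7, a group III receptor of presynaptic active zones, was the member nearest to a difference in N-dCKO. Its bright probe set, 1443119_at, read 2670, 2514, 2316 and 2485 in N-dCKO, 2493, 2109, 2265 and 2149 in APPKO, 2442, 2022, 2297 and 2234 in APLP2KO, and 2076, 2263, 2427 and 2017 in WT. Of the N-dCKO arrays 3 lay above every WT array, while array 3 lay below the highest WT array. The log2 fold change of N-dCKO was 0.19 ± 0.07 (SE) against WT, with a 95% interval of 0.03 to 0.34, an unadjusted p of 0.0203 and a limma adjusted p of 0.326. Against APPKO and against APLP2KO it was 0.15 ± 0.07 each, with adjusted p of 0.695 and 0.669 by limma. APPKO (0.04) and APLP2KO (0.03) were close to WT.

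N-dCKO array 3, the lowest of its group for Grm7, was also the array of that group whose choroid plexus signal lay in the range of the other genotypes. The choroid plexus list averaged 5.56 to 8.71 on the log2 scale in N-dCKO and 9.08 to 10.10 in WT. Over the 13 arrays other than N-dCKO 1, 2 and 4, Grm7 and that list had r = -0.45 and rho = -0.57, with permutation p of 0.124 and 0.0476, or 0.474 and 0.351 after adjustment over 81 relations. Over the same 13 arrays Grm2 had r = -0.65 and rho = -0.47 with that list (permutation p adjusted over 81 relations of 0.267 and 0.49). Without WT 2 and APPKO 1 that r was -0.26. Grm4 had r = -0.51 and rho = -0.51 (adjusted 0.471 and 0.456). Other lists also had no overlap between N-dCKO and WT. Interneuron genes averaged 10.12 to 10.16 in N-dCKO, above the 9.98 to 10.09 of WT, and the astrocyte genes were also higher on every N-dCKO array, with the values given for Grm3. Microglial genes (11 of 12 with a probe set) averaged 9.38 to 9.63 in N-dCKO and 9.87 to 9.97 in WT, and oligodendrocyte and myelin genes (10 of 12) averaged 11.48 to 11.94 in N-dCKO and 12.15 to 12.57 in WT. Over all 16 arrays Grm7 had r = 0.58 and rho = 0.57 with the astrocyte list (permutation p adjusted over 81 relations of 0.267 and 0.297), -0.55 and -0.54 with the oligodendrocyte list (0.291 and 0.351), -0.42 and -0.58 with the microglia list (0.474 and 0.297) and 0.43 and 0.33 with the interneuron list (0.474 and 0.631). As deviations from the genotype means r was 0.36 with astrocytes, -0.36 with oligodendrocytes, 0.12 with microglia and -0.23 with interneurons. Without the 2 arrays farthest from the list's median, r was 0.59 with astrocytes, -0.30 with oligodendrocytes, -0.51 with microglia and 0.39 with interneurons. Gapdh, read by probe sets at both ends of its transcript to show RNA integrity, had a 3'/5' ratio of 0.797 to 0.834 in N-dCKO, against 0.752 to 0.786 in WT. The part of these in the Grm7 values was not tested.

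The 2 other Grm7 probe sets were below the filter. Probe set 1458861_at read 89.3, 124, 132 and 106 in N-dCKO, 117, 97.3, 81.7 and 30.9 in APPKO, 76.9, 94.5, 41.8 and 110 in APLP2KO, and 106, 67.1, 54.6 and 64.2 in WT. The N-dCKO mean was the highest here as well, with a mean difference from WT of 0.59 on the log2 scale. The exact two-sided permutation p was 0.0571, where 0.0286 is the smallest that 4 against 4 arrays allow. It was 0.286 after adjustment over the 15 tests on probe sets below the filter. The groups overlapped, with WT array 1 above N-dCKO array 1. APPKO and APLP2KO differed from WT by 0.06 and 0.10 (exact permutation p of 0.886 and 0.771). Probe set 1459532_at ranged from 3.43 to 47.0 over all arrays, near background, and gave exact permutation p of 0.571 in N-dCKO, 0.686 in APPKO and 0.629 in APLP2KO against WT.

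Grm4, a group III receptor better known from cerebellum and thalamus, gave a dim signal that varied most among the tested members. It read 247, 207, 321 and 245 in N-dCKO, 328, 171, 305 and 233 in APPKO, 288, 241, 183 and 240 in APLP2KO, and 235, 201, 230 and 248 in WT. APPKO held both the highest and the lowest of the 16 arrays, and the highest was 1.92 times the lowest. Log2 fold changes against WT were 0.14 in N-dCKO, 0.14 in APPKO and 0.04 in APLP2KO, each ± 0.18 (SE), with intervals that reached 0.52. With 4 arrays a group, the Grm4 values were compatible with any difference inside those intervals.

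Grm8, also of group III, read 154, 201, 162 and 159 in N-dCKO, 145, 180, 181 and 187 in APPKO, 185, 189, 144 and 127 in APLP2KO, and 189, 163, 182 and 166 in WT. Its log2 fold changes against WT were -0.05 in N-dCKO, -0.02 in APPKO and -0.13 in APLP2KO, each ± 0.14 (SE). Limma adjusted p were 0.933, 1 and 0.901, and the groups overlapped throughout.

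**Figure D2:**
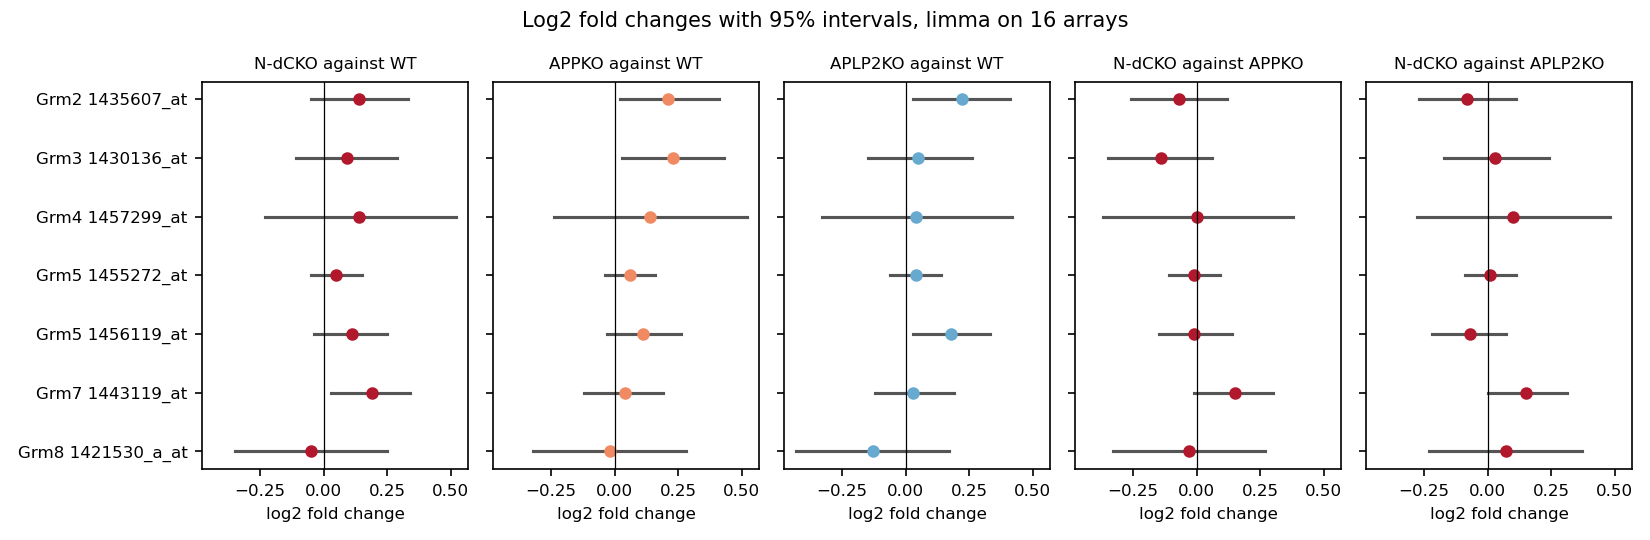
Log2 fold change (x axis) of the 7 tested receptor probe sets in 5 comparisons, with 95% intervals from limma on 16 arrays; the vertical line marks 0. Points lie between -0.14 and 0.23, and the intervals of Grm4 and Grm8 are wider than those of Grm5.

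The order of the genotype means is a description, since none of the 5 pairs of groups tested differed after adjustment. For Grm2, WT was lowest with 683 ± 110, followed by N-dCKO with 748 ± 41.5, APPKO with 786 ± 32.0 and APLP2KO with 791 ± 25.0 (signal, SD, n = 4). For Grm7 the order was WT (2196 ± 186), APLP2KO (2249 ± 174), APPKO (2254 ± 173) and N-dCKO (2496 ± 145). For both Grm5 probe sets WT had the lowest mean, 4863 ± 111 and 3562 ± 273. For Grm7 the step between N-dCKO and its neighbour APPKO was larger than either SD, with a limma adjusted p of 0.695.

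The residual SD within genotypes was 0.053 on the log2 scale for Grm5 1455272_at, 0.102 for Grm5 1456119_at, 0.107 for Grm7, 0.129 for Grm2, 0.153 for Grm3, 0.182 for Grm8 and 0.281 for Grm4. To describe how single arrays varied, the brightest tested probe set of each gene was set against 11 marker lists and against the other members over the arrays, 81 relations in all.

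By Pearson's r, the relations with the smallest p joined Grm4 to the dentate granule list and Grm3 to the neuron list. By Spearman's rho, that of Grm4 with the oligodendrocyte and myelin list came between them (rho = -0.66, r = -0.61, permutation p of 0.00653 and 0.0127, adjusted 0.264 and 0.257), with r = -0.66 as deviations from the genotype means and -0.59 without N-dCKO 1 and APPKO 1. Grm4 was high on arrays with low signal of dentate granule genes, with Pearson's r = -0.71 and Spearman's rho = -0.80 over 16 arrays (permutation p of 0.00235 and 0.00038, adjusted 0.19 and 0.0308 over 81 relations). As deviations from the genotype means r was -0.72 (permutation p within genotypes of 0.00186, adjusted 0.0806), and without N-dCKO 3 and WT 2, the arrays farthest from the median of the list, it was -0.61. Grm3 was high on arrays with high signal of neuronal genes such as Snap25 and Map2, with r = 0.63 and rho = 0.63 over 16 arrays (permutation p of 0.0094 and 0.0104, adjusted 0.257 and 0.281). As deviations from the genotype means r was 0.81 (permutation p of 0.00199, adjusted 0.0806), and it was 0.65 without WT 1 and APPKO 2. Next by Pearson's r came Grm3 with Grm5 (r = 0.62, rho = 0.51, permutation p of 0.00999 and 0.0436, adjusted 0.257 and 0.351). For this pair r was 0.57 as deviations from the genotype means and 0.50 without N-dCKO 1 and N-dCKO 4. Of these adjusted p-values 1, that of rho for Grm4, was below 0.05.

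**Figure D3:**
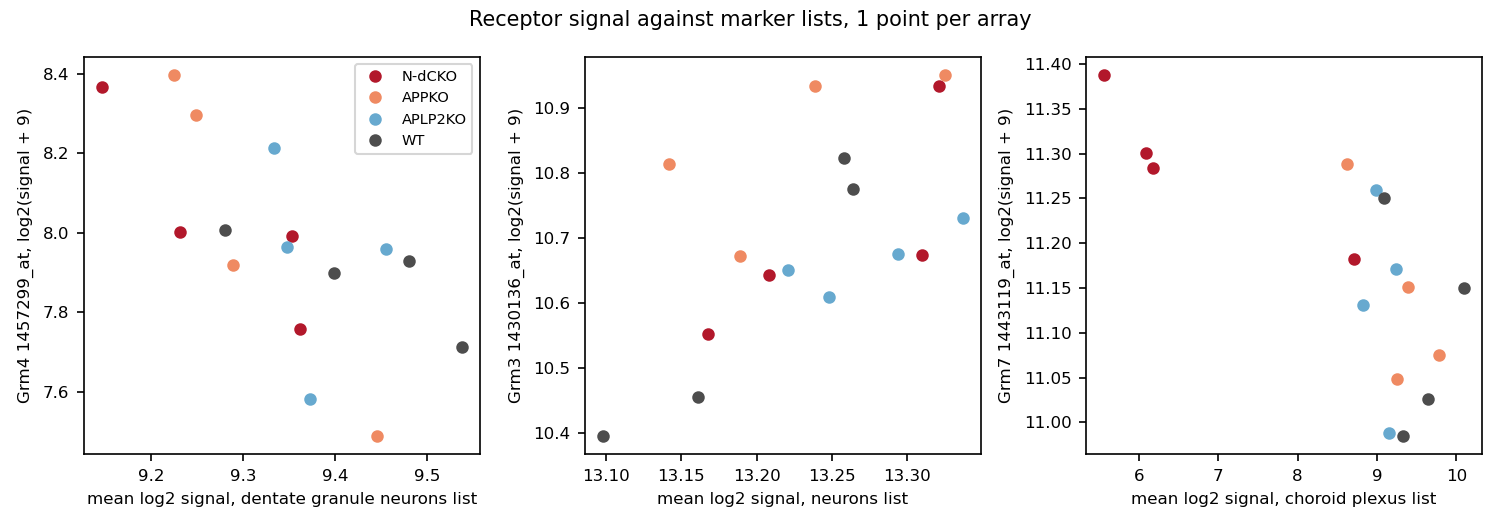
Log2 signal of Grm4, Grm3 and Grm7 (y axes) against the mean log2 signal of the dentate granule, neuron and choroid plexus lists (x axes); each point is 1 of 16 arrays, coloured by genotype. Grm4 falls with the dentate list and Grm3 rises with the neuron list over the 16 arrays, while 3 N-dCKO arrays stand apart on the choroid plexus axis.

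The genes whose signal followed each receptor most closely over the 16 arrays were, out of 11658 genes compared by Pearson's r, Gfm1 (0.85) and Asb1 (0.82) for Grm2, Oip5os1 (0.83) and Rab6b (0.83) for Grm3, and Zfp777 (0.83) and Tbc1d22b (0.80) for Grm4. For Grm5 they were Cox5a (0.83) and Zfp445 (0.79), for Grm7 Tm6sf1 (0.79) and 4632404H12Rik (0.78), and for Grm8 Rabl3 (0.81) and Nrbp2 (0.79). These are the extremes of a large search over 16 arrays that share scaling and genotype, and the other receptors were left out of the search.

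The genes that receptors of this family work with also had no calls, where at most 0.667% of all tested probe sets were called in any comparison. At that share a list of this size is likely to hold no call, so these counts say little about the genes. Of 17 tested genes on the group I side, such as Homer scaffolds, Gq subunits and phospholipase C, 0 were called in any of the 5 comparisons of groups or in the interaction. In N-dCKO against WT 9 of 17 were positive, with a median log2 fold change of 0.00 beside 0.01 for all tested probe sets. The count was also 9 of 17 with quantile normalization, and 5 of 17 with arrays centred on their medians. Shank3, a scaffold of the postsynaptic density, averaged 1993 in N-dCKO and 1601 in WT, a log2 fold change of 0.31 ± 0.10 (SE, limma adjusted p = 0.176). Homer3, which binds group I receptors, averaged 187.7 in N-dCKO and 236.1 in WT (-0.34 ± 0.15, limma adjusted p = 0.369), and Gnaq, the Gq alpha subunit, was at 0.09 ± 0.05 (0.563). Shank3 was at 0.03 in APPKO and 0.26 in APLP2KO against WT, Homer3 at -0.09 and -0.10.

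Of 23 tested genes on the group II and III side, 0 were called in these comparisons, beside at most 0.667% of all. This side includes Gi and Go subunits and adenylyl cyclases. In N-dCKO against WT 19 of 23 were positive (median 0.06). With quantile normalization 20 of 23 were positive (median 0.07), and with arrays centred on their medians 8 of 23 (median -0.03). Adcy8, a calcium-stimulated adenylyl cyclase, averaged 408.8 in N-dCKO and 287.2 in WT (log2 fold change 0.48 ± 0.16 SE, limma adjusted p = 0.224). It was at 0.13 in APPKO and 0.24 in APLP2KO. The G protein subunits Gnb1 (0.12 ± 0.05, limma adjusted p = 0.333) and Gnai2 (0.13 ± 0.06, 0.369) were shifted less in N-dCKO against WT.

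Of 8 tested genes of glutamate clearance and supply 0 were called, beside at most 0.667% of all tested probe sets. In N-dCKO against WT 6 of 8 were positive, also with quantile normalization, but 2 of 8 with arrays centred on their medians. Slc1a3, the astrocytic transporter GLAST, averaged 5810 in N-dCKO and 4986 in WT (log2 fold change 0.21 ± 0.07 SE, limma adjusted p = 0.196), and was at 0.00 in APPKO and 0.09 in APLP2KO against WT. Slc3a2, a subunit of amino acid exchangers, was at -0.08 ± 0.05 and Slc17a6, a vesicular glutamate transporter, at 0.11 ± 0.11 in N-dCKO against WT, with adjusted p of 0.641 and 0.778 by limma.

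**Figure D4:**
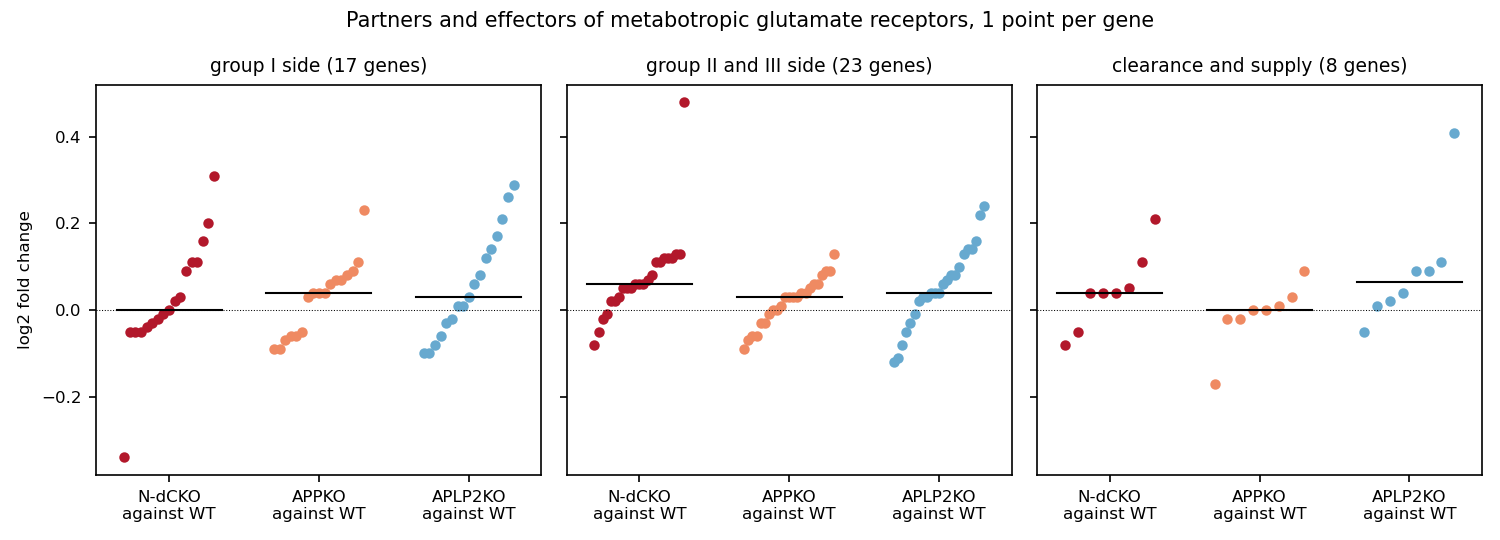
Log2 fold change against WT (y axis) of the tested genes of 3 lists, 1 point per gene and 1 column per knockout group, ordered by value; the short line is the median. Medians lie between 0.00 and 0.07 on the deposited scale and also with quantile normalization. They lie between -0.09 and -0.01 with arrays centred on their medians. After adjustment 0 genes were called, beside at most 0.667% of all tested probe sets.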

How the data were processed

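The authors deposited a table of intensity values for all 16 Affymetrix arrays, which the submitters' processing notes credit to MAS5 without a version. The deposited table held 45101 probe sets, 64 of them controls, with 34958 paired with 1 symbol, 932 with several and 9211 unlisted or unnamed. Symbols came from the platform annotation, and chromosomes from the GRCm38.p6 gene table, which held 34754 of the named probe sets.

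Signals were transformed as log2(signal + 9), where the pseudocount is 0.1 times the median signal of 91.7, rounded. Changes of dim probe sets come out too small on this scale. Controls and probe sets below the median of mean log2 signal were left out, which left 22503. Each probe set was a feature. limma 3.58.1 (R 4.3.3) fitted 1 mean per genotype with a variance trend, 12 residual degrees of freedom and Benjamini-Hochberg adjustment over all tested probe sets; a call is an adjusted p below 0.05. The script was tested on simulated data. Precision is set by the 4 arrays a group, with a typical (median) SE of 0.11 for N-dCKO against WT. Lists use each gene's brightest probe set. Permutation tests of relations drew 100000 resamples; the choroid plexus relation used the larger cluster of arrays, a choice made after seeing the data.

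The members and lists were chosen with earlier results of these data known. Named genes follow a rule: all member probe sets, App and Aplp2, the 2 genes most like each member, and the 3 genes of each pathway list with the smallest p in N-dCKO against WT. Alternatives were other scalings, pseudocounts, filters, features and variance models, a replicate block, only the groups compared, and leaving out each array.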

Additional observations from a re-analysis of the deposited data

Results flagged for a closer look

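The probe set listed for Grm2 together with Gm28111 was used in no comparison because its signal cannot be assigned to 1 gene, and it was examined after its values were seen. It read 47.4, 58.6, 56.6 and 49.0 in N-dCKO, 50.8, 62.3, 66.8 and 52.1 in APPKO, 44.9, 77.5, 36.1 and 42.2 in APLP2KO, and 31.2, 42.6, 42.5 and 27.7 in WT, all below the signal of 88 that served as the filter. All N-dCKO and all APPKO arrays lay above all WT arrays, by 0.47 and 0.58 on the log2 scale, with a two-sided p of 0.0286 in each exact permutation test, the smallest this design allows, or 0.214 after adjustment over the 15 tests on probe sets below the filter. APLP2KO differed from WT by 0.36 (exact permutation p of 0.2). Among all 22534 probe sets below the filter, the arrays did not overlap for 3.69% in N-dCKO and 3.67% in APPKO against WT. The Grm2 probe set proper had overlapping arrays in both comparisons.

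For Grm5 1456119_at, N-dCKO array 2 read 3593, apart from the 3884 to 3944 of the other N-dCKO arrays. For Grm8, APPKO array 1 read 144.5, apart from 180.3 to 186.8 on the other APPKO arrays. On the log2 scale the gap was in both over Dixon's 95% critical value for 4 samples (0.834 and 0.862 of the range). The linear signals given here were not tested this way, so both flags hold for the log2 scale only. The flagged groups are 2 of 36 groups examined, and chance alone marks about 1 in 20 groups this way.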

How the results depend on the processing

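No member probe set was called in any comparison under any setting run (limma, 28 besides the fit reported); the smallest adjusted p was 0.231, for Grm7 in N-dCKO against WT without WT array 3. With the replicate number as a block, 0 of 7 were called as well, and the log2 fold change of Grm7 in N-dCKO against WT stayed at 0.19 (limma adjusted p = 0.261). Same-numbered arrays of different groups had a median correlation of 0.04 in their deviations from the group means (-0.08 to 0.30, 24 pairs). For differently numbered arrays it was -0.01 (-0.18 to 0.20, 72 pairs). Over all probe sets the block raised the calls in N-dCKO against WT from 150 to 263, and calls rose in the other pairs of groups too. The labels do not say what the numbers stand for, and a shared replicate structure was not tested. The numbers were not taken as pairs in the fit reported.

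The 6 values with an unadjusted p below 0.05 were smaller with arrays centred on their medians, a setting under which the median of all tested probe sets was -0.08 in N-dCKO, -0.09 in APPKO and -0.08 in APLP2KO against WT. Grm2 was then at 0.12 in APPKO and 0.15 in APLP2KO against WT and at -0.21 in the interaction, Grm3 at 0.14 in APPKO, Grm5 1456119_at at 0.10 in APLP2KO and Grm7 at 0.10 in N-dCKO, with unadjusted p from 0.193 to 0.294. The value of Grm5 1455272_at turned to -0.04 in N-dCKO and -0.03 in APPKO against WT. The cause was not tested. With the mean over its probe sets, dim ones included, Grm7 was at 0.40 in N-dCKO against WT. That mean takes in the 3.43 of probe set 1459532_at on WT array 4. Leaving out 1 array gave 0.12 to 0.28 for Grm2 in APPKO, 0.13 to 0.29 for Grm2 in APLP2KO, 0.16 to 0.30 for Grm3 in APPKO, 0.13 to 0.25 for Grm5 1456119_at in APLP2KO and 0.15 to 0.24 for Grm7 in N-dCKO, each against WT. Of 42 member values, 17 that were smaller than their SE changed sign under at least 1 setting. For the probe set of Grm2 and Gm28111, quantile normalization gave 0.44 in APPKO against WT (exact permutation p of 0.0571).

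The counts over all probe sets moved more. N-dCKO against WT had 150 calls, with 46 for the mean over probe sets, 263 with the replicate block and 69 without WT array 2. APPKO against WT had 3, with 1 for 1 probe set per gene, 6 with the replicate block and 21 without APPKO array 2. APLP2KO against WT had 33, with 8 at the 75th percentile filter. N-dCKO against APPKO had 59, with 14 at that filter and 23 without APPKO array 3, and N-dCKO against APLP2KO had 6, with 2 at that filter, 37 with array weights and 43 without N-dCKO array 3. The interaction had 0, and 11 without N-dCKO array 3, and the test over 4 groups had 98, with 39 at the 75th percentile filter and 169 with the block. Signals of Grm4 and Grm8 lay close to the filter, which limits what these arrays can show for them.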
